A study of Homo sapiens with 9 samples.

Results

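The 42 genes described here encode the proteins that handle glucose in a cell. They cover glucose uptake, glycolysis, lactate export, the entry of pyruvate into mitochondria, glycogen storage and the pentose phosphate pathway. They were listed by gene name with earlier results of these data known, so the list is not independent of the values, and they were taken from a count table of 58735 genes. Of the 42, 40 were among the 15232 genes that passed a filter on low counts. The aldolase gene ALDOC and the kinase gene PDK4 did not pass it.

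RNA came from HEYA8, a line of human ovarian cancer cells grown in DMEM with serum. Its labels give high-grade serous carcinoma as the disease and wild type as the genotype. For 24 h, 3 samples received sunitinib, a drug that inhibits receptor tyrosine kinases, 3 received compound 32, and 3 received the solvent DMSO as the control. All 9 samples carry the same day label. The doses, the structure of compound 32 and its relation to sunitinib are unknown from the sources used here, so differences between the compounds compare the treatments as they were given. Biological replication is stated in the series text for sunitinib and DMSO but not for compound 32, so p-values reflect only how far these samples spread, possibly for technical reasons.

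Library totals ran from 15.5 to 18 M counts. Levels are in CPM, with TMM factors applied to library sizes. Sunitinib replicate 3 stood apart from its group. Ribosomal protein genes took 7.58% of its counts and mitochondrial genes 5.36%, against 4.14 to 5.00% and 3.42 to 3.92% in the other 8 libraries. Results that rest on it are given with and without it. Among 8 ovarian and epithelial markers, PAX8, KRT8 and KRT18 were well expressed, but MUC16 and CDH1 were at or near 0 in every library and EPCAM reached only 2.54 CPM. The ovarian transcription factor gene WT1 had 4.71, 5.46 and 5.20 CPM with sunitinib, 9.44, 11.4 and 11.00 CPM with compound 32 and 13.04, 13.1 and 10.9 CPM with DMSO, and KRT7 had 215, 226 and 231 CPM with sunitinib, 64.00, 64.3 and 70.2 CPM with compound 32 and 66.03, 75.4 and 75.3 CPM with DMSO. Of the 6 tested markers of this list, KRT8 and KRT18 were higher with compound 32 against DMSO at an edgeR adjusted p under 0.05. With sunitinib against DMSO, 1 of the 6 was higher and 1 lower by that test, both by at least 2-fold. Over all genes, 12% were higher with compound 32, and 5.67% rose and 2.23% fell by at least 2-fold with sunitinib. KRT8 had 627, 647 and 629 CPM with sunitinib, 838, 848 and 905 CPM with compound 32 and 679, 717 and 689 CPM with DMSO, and KRT18 had 321, 325 and 394 CPM with sunitinib, 421, 439 and 462 CPM with compound 32 and 351, 383 and 345 CPM with DMSO. Summed over 6 fibroblast markers, almost all from VIM, the levels were 3313 to 4530 CPM with sunitinib, 3291 to 3389 CPM with compound 32 and 3512 to 3772 CPM with DMSO. COL1A1, the one of this list that was higher with compound 32 by the same test, had 0.847, 0.806 and 1.496 CPM with sunitinib, 2.07, 3.004 and 3.646 CPM with compound 32 and 1.43, 1.38 and 1.80 CPM with DMSO, and DCN was at or near 0 in every library. Summed over 4 leukocyte markers, no library exceeded 0.975 CPM. Summed over 3 endothelial markers, the levels were 13.5 to 17.4 CPM with sunitinib, 5.44 to 6.14 CPM with compound 32 and 7.39 to 10.2 CPM with DMSO. By the same test against DMSO, 1 of the 3 was higher with sunitinib and 1 lower with compound 32. The shares over all genes were 20.3% and 10.3%. The part of these markers in the results below was not tested.

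Glucose enters the cell through facilitative transporters and is trapped by hexokinase, which commits it to glycolysis, to glycogen or to the pentose phosphate pathway. Glycolysis ends in pyruvate, which is either reduced to lactate and exported or carried into mitochondria and oxidised. Tumour cells often take up much glucose and release lactate even in oxygen. Many of these genes are known targets of the hypoxia-inducible factors, transcription factors that are degraded when oxygen-dependent prolyl hydroxylases modify them and that bind the core letters ACGTG or GCGTG.

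Compound 32 raised most of the 42 genes, and with sunitinib some rose and some fell, as genes did over the whole table. A gene is called changed at a Benjamini-Hochberg adjusted p under 0.05 over all 15232 genes in edgeR's quasi-likelihood test, and values after ± are standard errors of log2 fold changes. With compound 32 against DMSO, 27 of the 40 tested genes were higher and 1 was lower. Of all genes tested, 22.3% were called, 12% higher and 10.3% lower. A rise of at least 2-fold was called for 11 of the 40, against 2.01% of all genes, and a fall of that size for none of the 40, against 1.14% of all genes. The median log2 fold change of the 40 was 0.60, against -2.66e-04 over all genes. With sunitinib against DMSO, 8 of the 40 were higher and 11 were lower, where 40.2% of all genes were called, 20.3% higher and 19.9% lower. The 8 higher match the share of all genes, and the 11 lower are somewhat above it. No change of 2-fold was called among the 40 with sunitinib, where 5.67% of all genes rose and 2.23% fell by that much, and their median was -0.077, against 0.022 over all genes. Without sunitinib replicate 3, 10 were higher and 19 lower, where 3908 and 4096 of all 15580 genes then tested were. With upper-quartile in place of TMM scaling, 9 were higher and 10 lower, while all genes split into 3952 higher and 2316 lower, against 3090 and 3036 with TMM.

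The separation of single libraries was read against the whole table too. All 3 compound 32 libraries were above all 3 DMSO libraries in 30 of the 40 genes, where 24.7% of all genes were, and below them in 4, where 24.4% were. All 3 sunitinib libraries were above all 3 DMSO libraries in 7 of the 40, against 25.8% of all genes, and below them in 14, against 25.1%. Compound 32 lay above sunitinib in this way in 29 of the 40 and below it in 4, against 27.8% and 29% of all genes.

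**Figure D1:**
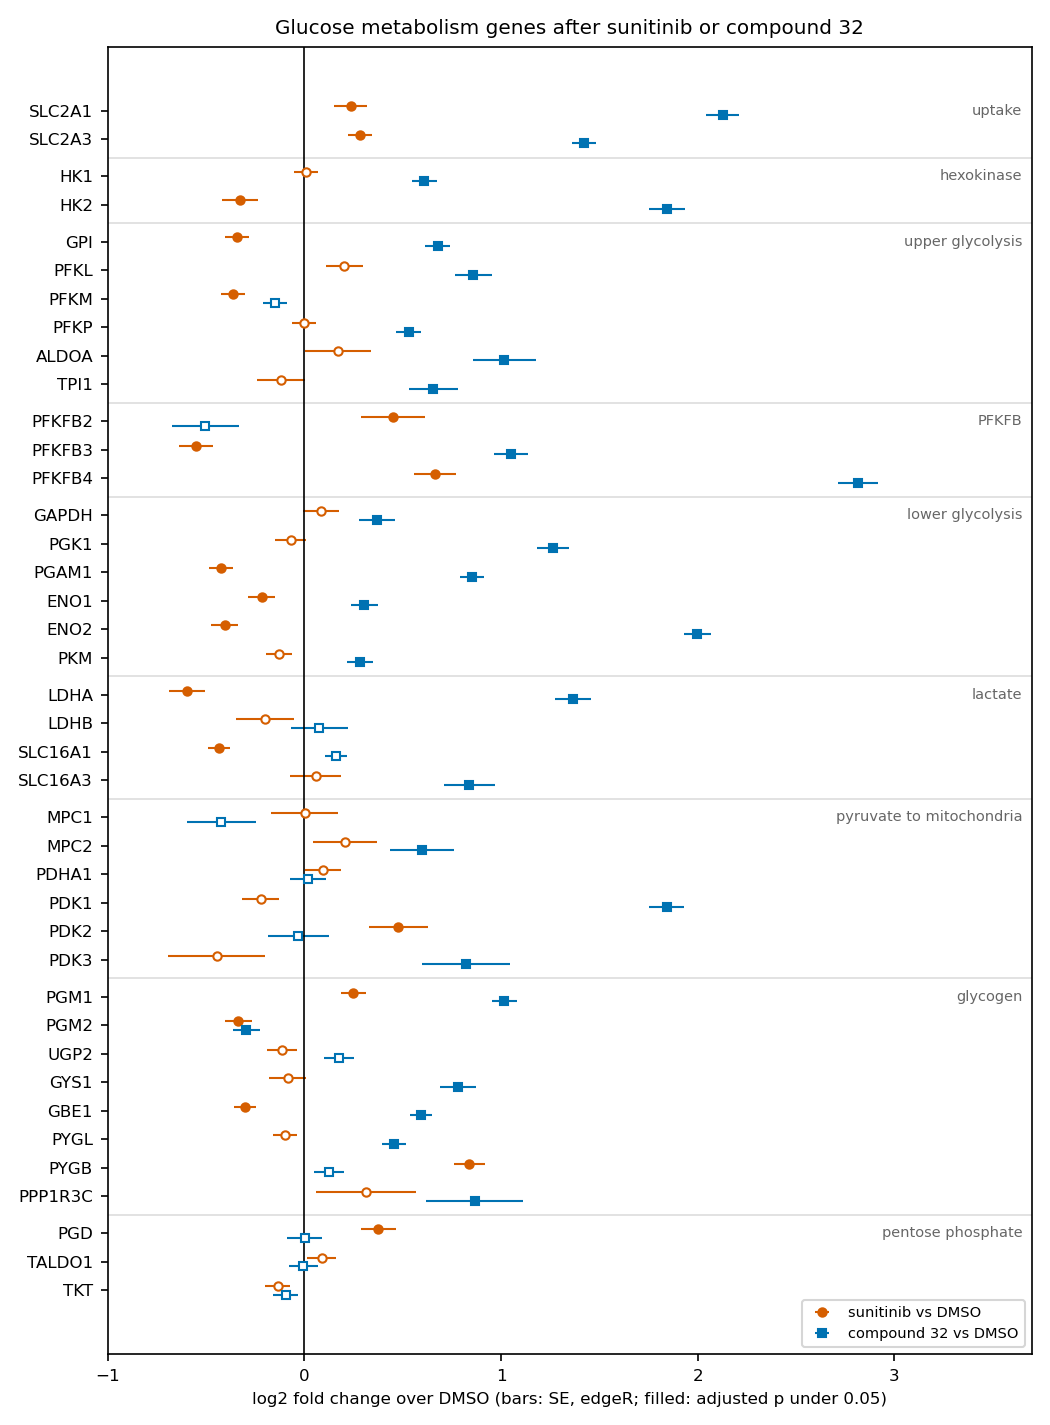
Log2 fold changes over DMSO of the 40 tested genes after sunitinib (orange circles) or compound 32 (blue squares), by role, with bars for the standard error (n = 3 libraries per group) and filled symbols for an edgeR adjusted p under 0.05. With compound 32, 27 filled squares lie right of 0 and 1, that of PGM2, lies left of it; with sunitinib, 8 filled circles lie right and 11 left.

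The counts are from bulk RNA, so a change in all cells and a change in a part of them cannot be told apart. The share of each library's counts taken by the 42 genes was 1.70 to 1.74% with sunitinib, 2.60 to 2.71% with compound 32 and 1.73 to 1.81% with DMSO. The compound 32 libraries lay above all the others, and the ranges of sunitinib and DMSO overlapped. The 2 comparisons with DMSO share their control libraries, so their calls are given side by side and not as independent results. PFKFB4, PGM1, SLC2A1 and SLC2A3 were higher under both compounds, and PGM2 was lower under both. ENO1, ENO2, GBE1, GPI, HK2, LDHA, PFKFB3 and PGAM1 were lower with sunitinib and higher with compound 32. PDK2, PFKFB2, PGD and PYGB were called higher with sunitinib alone, and PFKM and SLC16A1 were called lower with sunitinib alone. LDHB, MPC1, PDHA1, TALDO1, TKT and UGP2 were called in neither. The other 15 tested genes were called higher with compound 32 and not called with sunitinib.

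Promoters of 4 of the genes that rose most with compound 32, and of LDHB, the lactate dehydrogenase gene that was not called, are printed because they show how the core letters of the hypoxia-inducible factors sit near the start sites. Each runs from 250 bases before to 50 bases after the RefSeq start (GRCh38.p14), 5′ to 3′ on the strand of the gene. Capitals mark ACGTG or GCGTG on either strand, so that CACGT and CACGC mark the same letters on the other strand and CACGTG marks a site on both. PFKFB4 lies on the minus strand at chr3:48556754-48557053, SLC2A1 on the minus strand at chr1:42958819-42959118, ENO2 on the plus strand at chr12:6914330-6914629, LDHA on the plus strand at chr11:18394313-18394612 and LDHB on the minus strand at chr12:21657793-21658092.
PFKFB4: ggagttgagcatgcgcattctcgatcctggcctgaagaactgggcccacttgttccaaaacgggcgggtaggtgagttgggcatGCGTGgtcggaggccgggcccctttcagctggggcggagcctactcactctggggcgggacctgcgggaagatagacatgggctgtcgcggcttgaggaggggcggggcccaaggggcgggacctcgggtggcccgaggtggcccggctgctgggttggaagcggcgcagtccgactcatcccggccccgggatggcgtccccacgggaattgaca
SLC2A1: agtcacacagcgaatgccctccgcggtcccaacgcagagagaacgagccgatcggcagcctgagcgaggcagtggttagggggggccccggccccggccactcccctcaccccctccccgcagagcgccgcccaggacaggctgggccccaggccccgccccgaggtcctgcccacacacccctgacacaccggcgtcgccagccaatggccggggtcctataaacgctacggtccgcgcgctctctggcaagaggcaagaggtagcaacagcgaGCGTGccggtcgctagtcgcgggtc
ENO2: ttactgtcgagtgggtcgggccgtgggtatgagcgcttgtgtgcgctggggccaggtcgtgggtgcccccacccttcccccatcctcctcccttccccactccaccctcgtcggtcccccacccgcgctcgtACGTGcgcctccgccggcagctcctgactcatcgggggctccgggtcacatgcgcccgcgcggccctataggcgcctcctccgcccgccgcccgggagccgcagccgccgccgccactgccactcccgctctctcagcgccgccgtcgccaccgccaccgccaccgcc
LDHA: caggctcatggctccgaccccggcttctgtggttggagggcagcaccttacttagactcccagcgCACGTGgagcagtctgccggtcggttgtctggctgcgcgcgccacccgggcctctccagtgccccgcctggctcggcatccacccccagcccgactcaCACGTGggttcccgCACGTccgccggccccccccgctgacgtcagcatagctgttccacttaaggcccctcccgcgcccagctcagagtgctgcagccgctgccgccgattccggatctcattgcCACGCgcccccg
LDHB: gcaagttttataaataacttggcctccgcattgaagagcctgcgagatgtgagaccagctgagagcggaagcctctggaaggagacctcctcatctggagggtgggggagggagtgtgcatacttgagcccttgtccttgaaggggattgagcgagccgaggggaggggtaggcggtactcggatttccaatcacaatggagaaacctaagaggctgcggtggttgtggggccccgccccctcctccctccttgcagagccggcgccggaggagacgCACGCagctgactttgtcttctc
LDHA, shown by the first of its 2 listed windows, held 6 matches in 4 places. The windows of PFKFB4, SLC2A1, ENO2 and LDHB held 1 match each. The genes printed are examples, and HK2, PDK1 and SLC2A3 rose more than LDHA. Among genes not printed, the most matches in a window were 6 in HK2 and 0 in PGAM1, both called higher. They were 4 in PDHA1 and 0 in TKT, neither of them called with compound 32.

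RefSeq windows were listed for 39 of the 42 genes, 72 windows in all, and 46 of them (63.9%) held at least 1 core match. Of the 50 windows of genes called higher with compound 32, 34 (68.0%) held one, and of the 19 windows of genes not called, 10 (52.6%) did. Among all 15173 windows of the genes tested the share was 60.4%, and among all 35116 listed windows it was 48.4%. ACGTG was in 38.0% of the windows of the genes called higher and in 25.4% of the windows of the genes tested, whereas GCGTG was in 46.0% and 48.2%. PGAM1 and PYGL rose with compound 32 and held no match in their listed window. A match describes these letters only, and several windows of 1 gene overlap.

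Both glucose transporter genes were higher under both compounds, by a small amount with sunitinib and by more than 2-fold with compound 32. SLC2A1 (minus strand, chr1:42925375-42959176, hg38) encodes GLUT1, the basal glucose transporter of most cells, and had 221, 219.8 and 179.7 CPM with sunitinib, 743, 776 and 781 CPM with compound 32 and 169, 182 and 176 CPM with DMSO. The compound 32 libraries lay far above the others, and sunitinib replicate 3 lay inside the DMSO range. The log2 fold change was 0.24 ± 0.083 for sunitinib (edgeR adjusted p = 0.041) and 2.13 ± 0.086 for compound 32, a 4.37-fold rise (edgeR adjusted p = 5.33e-08). The sunitinib call was lost in 11 of 19 alternatives, among them the omission of any single library other than sunitinib replicate 3, with values from 0.18 without sunitinib replicate 1 to 0.25 without DMSO replicate 2. Without sunitinib replicate 3 it was kept, at 0.33.

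SLC2A3 encodes GLUT3, a transporter with high affinity for glucose, and had 77.2, 72.3 and 76.6 CPM with sunitinib, 164, 170.0 and 164 CPM with compound 32 and 61.4, 61.04 and 63.4 CPM with DMSO. The 3 groups did not overlap. The rise was 0.28 ± 0.060 with sunitinib (edgeR adjusted p = 0.00304) and 1.42 ± 0.060 with compound 32 (edgeR adjusted p = 7.51e-08). Its near-identical paralog SLC2A14 had at most 2 counts in any library. Compound 32 over sunitinib gave 1.89 ± 0.085 for SLC2A1 and 1.14 ± 0.059 for SLC2A3 on the log2 scale.

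Of the 2 hexokinase genes, HK2 moved in opposite directions under the 2 compounds and HK1 was called only with compound 32. HK2, the inducible hexokinase of many tumours, had 70.2, 77.7 and 57.9 CPM with sunitinib, 313, 313 and 304 CPM with compound 32 and 86.5, 85.1 and 86.9 CPM with DMSO. All 3 sunitinib libraries were below, and all 3 compound 32 libraries above, the DMSO range. HK2 fell by 1.26-fold with sunitinib (log2 fold change -0.33 ± 0.091, edgeR adjusted p = 0.0137) and rose 3.60-fold with compound 32 (1.85 ± 0.092, edgeR adjusted p = 2.09e-07). The sunitinib call was lost with library totals as the only scaling (-0.27). HK1, the hexokinase found in most tissues, had 359.7, 379 and 347 CPM with sunitinib, 555, 544 and 549 CPM with compound 32 and 354, 359 and 366 CPM with DMSO. Sunitinib and DMSO overlapped, and compound 32 was higher by 0.61 ± 0.061 (edgeR adjusted p = 4.07e-05).

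**Figure D2:**
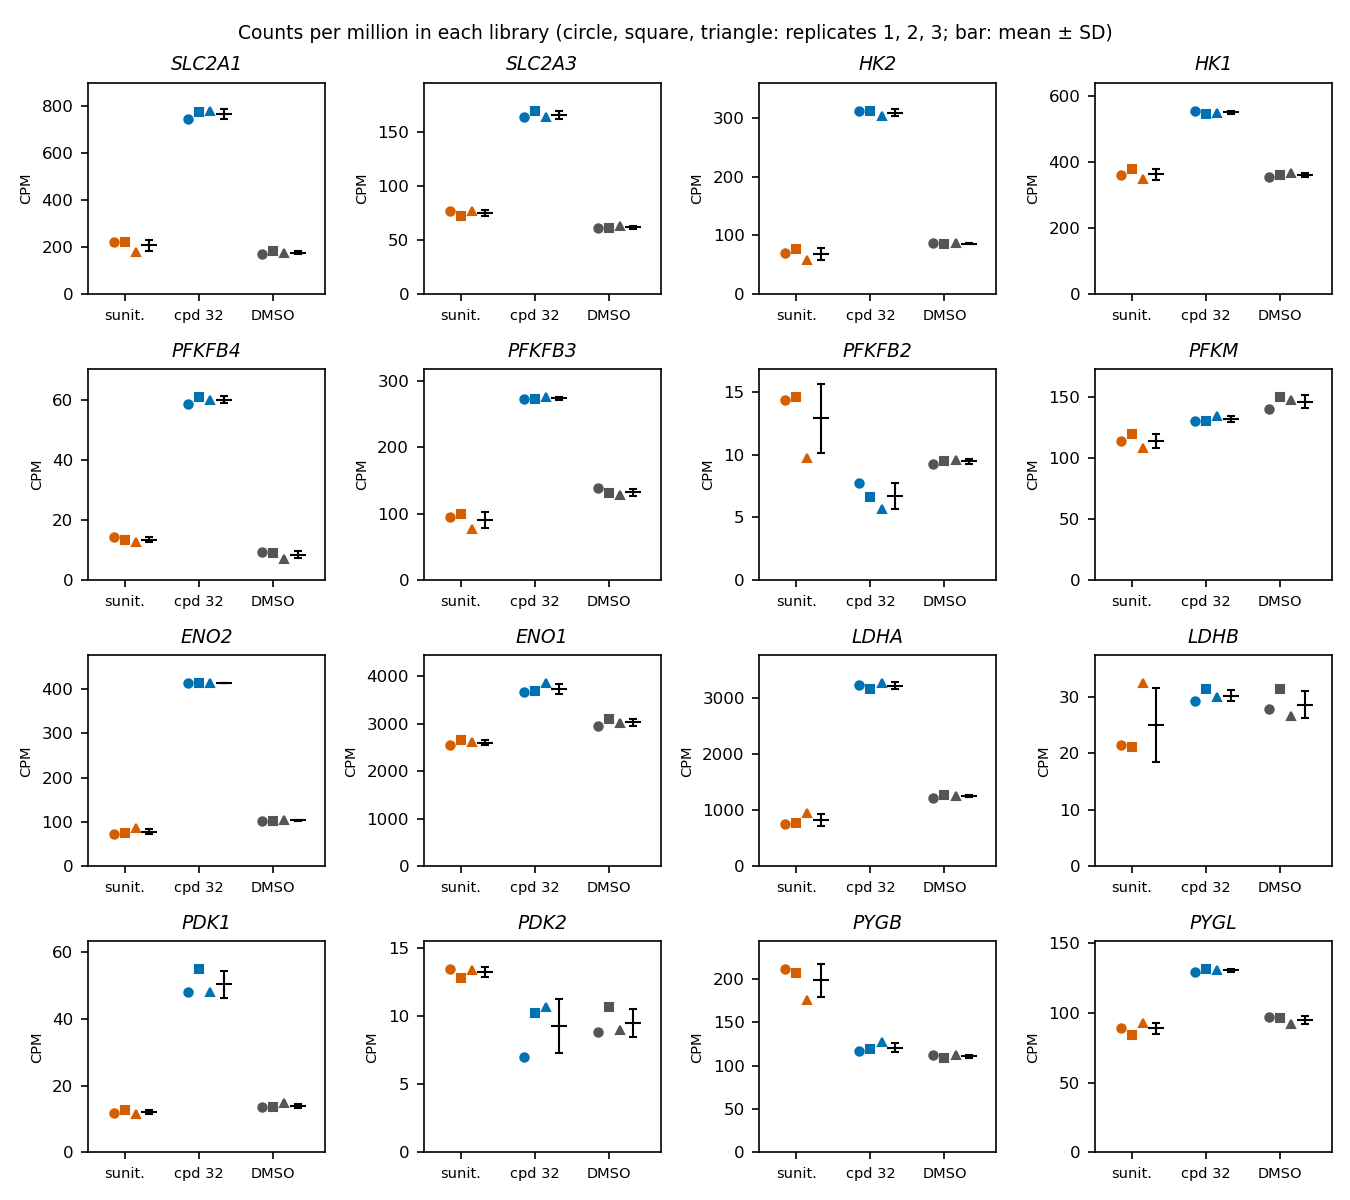
Levels in CPM of 16 genes in each library, with sunitinib (orange), compound 32 (blue) and DMSO (grey) from left to right; circles, squares and triangles are replicates 1, 2 and 3, and the bar beside them is the mean ± SD (n = 3). The 3 compound 32 values of SLC2A1, HK2, PFKFB4, ENO2, LDHA and PDK1 lie together far above both other groups, while PYGB is high with sunitinib, and in LDHB, PFKFB2 and PYGB sunitinib replicate 3 lies away from the other 2 sunitinib libraries.

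In upper glycolysis, from glucose 6-phosphate to the triose phosphates, 5 of 6 tested genes rose with compound 32, and 2 fell with sunitinib. The shares over all genes were 12% higher with compound 32 and 19.9% lower with sunitinib. GPI, the isomerase that makes fructose 6-phosphate, had 309.8, 313 and 291 CPM with sunitinib, 602, 619 and 633 CPM with compound 32 and 378, 392 and 388 CPM with DMSO. The groups did not overlap, with changes of -0.34 ± 0.062 for sunitinib (edgeR adjusted p = 0.00108) and 0.68 ± 0.062 for compound 32 (edgeR adjusted p = 2.08e-05). The subunits of phosphofructokinase, which catalyses the committed step, had different values with compound 32. PFKL, named for liver, had 143, 149 and 112 CPM with sunitinib, 204, 213 and 219 CPM with compound 32 and 116, 119 and 116 CPM with DMSO, and rose by 0.86 ± 0.094 with compound 32 (edgeR adjusted p = 8.12e-05). Sunitinib replicate 3 lay below the DMSO range and the other 2 sunitinib libraries above it.

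PFKP, named for platelets, had 369.9, 385 and 353 CPM with sunitinib, 519, 533 and 551 CPM with compound 32 and 366, 371 and 373 CPM with DMSO. It was higher with compound 32 by 0.53 ± 0.062 (edgeR adjusted p = 1.46e-04), and its sunitinib and DMSO libraries overlapped. PFKM, named for muscle, had 114, 119.6 and 108 CPM with sunitinib, 131, 131 and 135 CPM with compound 32 and 141, 151 and 148 CPM with DMSO. It was lower with sunitinib (-0.36 ± 0.062, edgeR adjusted p = 8.12e-04). With compound 32 its value was -0.15 ± 0.062 (edgeR adjusted p = 0.111), although all 3 libraries were below the DMSO range, and without sunitinib replicate 3 it was -0.15 (edgeR adjusted p = 0.00414).

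TPI1, which interconverts the triose phosphates, had 679, 689 and 979 CPM with sunitinib, 1316, 1324 and 1379 CPM with compound 32 and 830.1, 899.6 and 819 CPM with DMSO. Compound 32 raised it by 0.66 ± 0.12 (edgeR adjusted p = 0.00297), while sunitinib replicate 3 was above, and sunitinib replicates 1 and 2 below, the DMSO range. ALDOA, the main aldolase of muscle and of most tumour cells, had only 6.51, 8.43 and 5.59 CPM with sunitinib, 14.03, 10.8 and 12.1 CPM with compound 32 and 6.10, 6.48 and 5.66 CPM with DMSO. Its level here is not comparable with that of other genes: 93.8% of its coding bases lie in exons of AC093512.2 on the same strand, and the counting of reads in shared exons is unknown from the sources used here. The reads that were counted for ALDOA were higher with compound 32 by 1.02 ± 0.16 (edgeR adjusted p = 9.92e-04). ALDOC, the aldolase of brain, had 4 to 12 counts per library and was not tested.

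PFKFB enzymes make and remove fructose 2,6-bisphosphate, the main activator of phosphofructokinase, and the patterns of calls of the 3 measured here were all different. PFKFB4 (minus strand, chr3:48517684-48562015, hg38) had the largest rise of the 40 tested genes with compound 32. It had 14.3, 13.3 and 12.7 CPM with sunitinib, 58.6, 60.95 and 59.9 CPM with compound 32 and 9.41, 8.93 and 7.14 CPM with DMSO. The groups did not overlap, and the compound 32 libraries differed little from each other. PFKFB4 rose 7.04-fold with compound 32 (2.82 ± 0.10, edgeR adjusted p = 2.36e-08) and 1.59-fold with sunitinib (0.66 ± 0.11, edgeR adjusted p = 5.51e-04). With compound 32 against sunitinib the log2 fold change was 2.15 ± 0.098.

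PFKFB3, whose kinase activity far exceeds its phosphatase activity, had 95.1, 98.8 and 77.1 CPM with sunitinib, 272, 273 and 276 CPM with compound 32 and 138, 131 and 128 CPM with DMSO. It was below the DMSO range in every sunitinib library (-0.55 ± 0.087, edgeR adjusted p = 4.61e-04) and above it in every compound 32 library (1.05 ± 0.086, edgeR adjusted p = 9.48e-06). PFKFB2, the isoform known from heart, had 14.3, 14.6 and 9.75 CPM with sunitinib, 7.76, 6.63 and 5.68 CPM with compound 32 and 9.28, 9.53 and 9.58 CPM with DMSO. Its order was the reverse of PFKFB3, with sunitinib replicates 1 and 2 high, sunitinib replicate 3 just above DMSO, and compound 32 low. The change was 0.45 ± 0.16 for sunitinib (edgeR adjusted p = 0.0429) and -0.50 ± 0.17 for compound 32 (edgeR adjusted p = 0.0554). The sunitinib call was lost in 9 of 19 alternatives. Among them were the omission of any DMSO library, of sunitinib replicate 1 or 2, and of compound 32 replicate 2 or 3, with values from 0.35 without sunitinib replicate 2 to 0.45 without DMSO replicate 3. Without sunitinib replicate 3 it was 0.61. The compound 32 value became a call in 5 of 19 alternatives, among them the omission of sunitinib replicate 3 (-0.50). Between compound 32 and sunitinib PFKFB2 was lower with compound 32 (-0.95 ± 0.17, edgeR adjusted p = 6.09e-04).

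All 6 genes of lower glycolysis, from glyceraldehyde 3-phosphate to pyruvate, rose with compound 32, and 3 fell with sunitinib. The shares over all genes were 12% higher with compound 32 and 19.9% lower with sunitinib. ENO2 (plus strand, chr12:6913745-6923698, hg38), the enolase named for neurons, had 73.1, 75.95 and 85.4 CPM with sunitinib, 413, 414 and 413 CPM with compound 32 and 103, 103 and 105 CPM with DMSO. The groups did not overlap. ENO2 rose 3.99-fold with compound 32 (2.00 ± 0.069, edgeR adjusted p = 2.14e-08) and changed by -0.41 ± 0.068 with sunitinib (edgeR adjusted p = 6.98e-04). ENO1, the enolase of most tissues, had 2545, 2663 and 2612 CPM with sunitinib, 3678, 3690.3 and 3867 CPM with compound 32 and 2964, 3113 and 3014 CPM with DMSO. It also separated by group, with -0.22 ± 0.067 for sunitinib (edgeR adjusted p = 0.0227) and 0.31 ± 0.067 for compound 32 (edgeR adjusted p = 0.00733). The sunitinib call of ENO1 was lost in 7 of 19 alternatives, with -0.13 under upper-quartile scaling and, among the libraries left out, -0.24 without DMSO replicate 1, -0.21 without DMSO replicate 2, -0.23 without DMSO replicate 3 and -0.20 without sunitinib replicate 1. The compound 32 call was lost without DMSO replicate 1 (0.28).

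PGK1, which makes the first ATP of glycolysis, had 532, 526 and 631 CPM with sunitinib, 1396, 1416 and 1446 CPM with compound 32 and 589.9, 601 and 582 CPM with DMSO. Compound 32 was far above both other groups (1.26 ± 0.079, edgeR adjusted p = 1.20e-06), while sunitinib replicate 3 was above and the other 2 sunitinib libraries below DMSO. PGAM1, the mutase of the next step, had 420.3, 425 and 408 CPM with sunitinib, 1037, 994 and 1005 CPM with compound 32 and 556, 582 and 543 CPM with DMSO. The groups did not overlap, with -0.42 ± 0.062 for sunitinib (edgeR adjusted p = 2.82e-04) and 0.85 ± 0.063 for compound 32 (edgeR adjusted p = 3.91e-06).

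GAPDH and PKM, at the start and the end of this segment, had small rises with compound 32, whose calls, but not their direction or size, depended on single libraries. GAPDH, the dehydrogenase often used to normalise other transcripts, had 4480.0, 4358 and 5319 CPM with sunitinib, 5542, 5639 and 6058 CPM with compound 32 and 4297, 4657 and 4387 CPM with DMSO. Compound 32 was above DMSO (0.37 ± 0.090, edgeR adjusted p = 0.0123), and sunitinib replicate 3 was the only sunitinib library above the DMSO range. The compound 32 call was lost without DMSO replicate 1 (0.34), without DMSO replicate 3 (0.36) and without compound 32 replicate 3 (0.33). PKM, pyruvate kinase, whose 2 splice forms PKM1 and PKM2 share 1 count here, had 2331, 2448 and 2441 CPM with sunitinib, 3183, 3143 and 3282 CPM with compound 32 and 2616, 2669 and 2600.3 CPM with DMSO. It was higher with compound 32 by 0.29 ± 0.066 (edgeR adjusted p = 0.0095). That call was lost without DMSO replicate 1 (0.28), DMSO replicate 3 (0.27) or compound 32 replicate 3 (0.26). All 3 sunitinib libraries were below DMSO in PKM, with a value of -0.13 ± 0.066 that was not called (edgeR adjusted p = 0.144).

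LDHA and LDHB encode the 2 subunits of lactate dehydrogenase, and LDHA responded to both compounds in opposite directions. LDHA (plus strand, chr11:18394388-18408425, hg38), whose enzyme favours lactate formation, had 756, 767 and 959.7 CPM with sunitinib, 3239, 3164 and 3279 CPM with compound 32 and 1228, 1272 and 1257 CPM with DMSO. Every sunitinib library was below, and every compound 32 library above, the DMSO range. LDHA fell by 1.51-fold with sunitinib (-0.60 ± 0.092, edgeR adjusted p = 3.66e-04) and rose 2.58-fold with compound 32 (1.37 ± 0.093, edgeR adjusted p = 2.24e-06). Among the 40 genes, no other fell more with sunitinib. Compound 32 exceeded sunitinib by 1.96 ± 0.094.

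LDHB, whose enzyme is known to favour lactate oxidation, had 21.4, 21.02 and 32.4 CPM with sunitinib, 29.3, 31.4 and 29.9 CPM with compound 32 and 27.9, 31.4 and 26.6 CPM with DMSO. Sunitinib replicate 3 was the highest of the 9 libraries and sunitinib replicates 1 and 2 the lowest. The change was -0.20 ± 0.15 for sunitinib (edgeR adjusted p = 0.299) and 0.077 ± 0.15 for compound 32 (edgeR adjusted p = 0.759), and without sunitinib replicate 3 the sunitinib value was -0.43 (edgeR adjusted p = 2.86e-05). The LDHB level is uncertain, because 93.5% of its coding bases lie in exons of AC010197.2 on the same strand, a gene listed with 0 counts in every library.

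With all 9 libraries in the fit, the lactate exporters differed in which compound gave a call. SLC16A3, which encodes MCT4, the transporter typical of lactate-releasing cells, had 473, 484 and 318 CPM with sunitinib, 704, 735 and 753 CPM with compound 32 and 392, 422 and 411 CPM with DMSO. It rose by 0.84 ± 0.13 with compound 32 (edgeR adjusted p = 8.92e-04). Sunitinib replicate 3 was below the DMSO range and sunitinib replicates 1 and 2 above it. Without sunitinib replicate 3 the sunitinib value of SLC16A3 was 0.23 (edgeR adjusted p = 1.36e-06). SLC16A1, which encodes MCT1, had 218, 219.9 and 225 CPM with sunitinib, 326, 337 and 335 CPM with compound 32 and 302, 299 and 293 CPM with DMSO. It was lower in every sunitinib library (-0.43 ± 0.057, edgeR adjusted p = 1.22e-04). With compound 32 its value was 0.16 ± 0.057 (edgeR adjusted p = 0.064), above DMSO in all 3 libraries, and without sunitinib replicate 3 it was 0.16 (edgeR adjusted p = 1.33e-04).

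Among the genes that decide whether pyruvate is oxidised, 3 of 6 tested rose with compound 32 and 1 rose with sunitinib. The shares of all genes called higher were 12% with compound 32 and 20.3% with sunitinib. PDK enzymes phosphorylate and inactivate pyruvate dehydrogenase. PDK1 (plus strand, chr2:172555373-172608669, hg38) had 11.9, 12.7 and 11.6 CPM with sunitinib, 47.97, 55.01 and 48.2 CPM with compound 32 and 13.7, 13.7 and 14.7 CPM with DMSO. Compound 32 was far above the rest, and every sunitinib library was below DMSO. PDK1 rose 3.59-fold with compound 32 (1.84 ± 0.088, edgeR adjusted p = 1.65e-07), while its sunitinib value of -0.22 ± 0.094 was not called (edgeR adjusted p = 0.0796).

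PDK2 had 13.4, 12.8 and 13.4 CPM with sunitinib, 6.98, 10.2 and 10.6 CPM with compound 32 and 8.82, 10.7 and 8.94 CPM with DMSO. It was higher in all 3 sunitinib libraries (0.48 ± 0.15, edgeR adjusted p = 0.0251), and compound 32 overlapped DMSO. The sunitinib call was lost without DMSO replicate 1 (0.42), DMSO replicate 3 (0.42) or sunitinib replicate 1 (0.46), and 38.6% of the exonic bases of PDK2 overlap SAMD14 on the other strand. PDK3 had 3.44, 2.23 and 4.03 CPM with sunitinib, 7.69, 7.51 and 8.19 CPM with compound 32 and 5.45, 3.00 and 4.82 CPM with DMSO. It was above DMSO in all 3 compound 32 libraries (0.82 ± 0.23, edgeR adjusted p = 0.0223), a call that was lost in 5 of 19 alternatives, with 0.60 without DMSO replicate 2, 0.89 without DMSO replicate 3, 0.83 without compound 32 replicate 1, 0.84 without compound 32 replicate 2 and 0.78 without compound 32 replicate 3. Its sunitinib value of -0.45 ± 0.25 was not called (edgeR adjusted p = 0.169), but it was called without DMSO replicate 2 (-0.67) and without sunitinib replicate 3 (-0.62). PDK4 had 4 to 11 counts per library and was not tested.

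PDHA1, the catalytic subunit that these kinases phosphorylate, had 55.2, 57.04 and 70.9 CPM with sunitinib, 55.7, 59.9 and 57.97 CPM with compound 32 and 56.4, 59.4 and 55.4 CPM with DMSO. The groups overlapped, with 0.096 ± 0.093 for sunitinib and 0.020 ± 0.093 for compound 32. MPC1 and MPC2 together form the carrier that takes pyruvate into mitochondria. MPC2 had 18.3, 15.1 and 26.01 CPM with sunitinib, 27.7, 24.3 and 25.9 CPM with compound 32 and 16.3, 18.5 and 16.5 CPM with DMSO, and was higher with compound 32 by 0.60 ± 0.16 (edgeR adjusted p = 0.0207). That call was lost without DMSO replicate 1 (0.56), DMSO replicate 3 (0.57), compound 32 replicate 1 (0.55) or compound 32 replicate 3 (0.60). MPC1 had 6.14, 4.34 and 6.83 CPM with sunitinib, 4.14, 4.63 and 4.12 CPM with compound 32 and 6.29, 5.34 and 5.66 CPM with DMSO. Its compound 32 libraries were all below DMSO, with -0.42 ± 0.18 (edgeR adjusted p = 0.113).

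Glycogen is built by GYS1 and branched by GBE1 from glucose that PGM enzymes and UGP2 have activated, and PYGL and PYGB break it down. With compound 32, 5 of the 8 glycogen genes rose and 1 fell, where 12% and 10.3% of all genes did. With sunitinib 2 rose and 2 fell, near the shares of 20.3% and 19.9% over all genes. PYGB (plus strand, chr20:25248069-25298014, hg38), the phosphorylase named for brain, had the largest rise of the 40 tested genes with sunitinib. It had 211, 207 and 176 CPM with sunitinib, 116, 119 and 127 CPM with compound 32 and 112, 109 and 112 CPM with DMSO. Sunitinib libraries were far above the rest, with replicate 3 the lowest of them, and compound 32 was slightly above DMSO. PYGB rose 1.79-fold with sunitinib (0.84 ± 0.076, edgeR adjusted p = 8.37e-06), and compound 32 gave 0.12 ± 0.077 (edgeR adjusted p = 0.281). Compound 32 over sunitinib gave -0.72 ± 0.076 (edgeR adjusted p = 1.59e-05).

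PYGL, the phosphorylase named for liver, had 89.6, 84.6 and 92.7 CPM with sunitinib, 129, 132 and 131 CPM with compound 32 and 97.6, 96.3 and 92.1 CPM with DMSO. It rose with compound 32 (0.46 ± 0.061, edgeR adjusted p = 3.32e-04), and sunitinib overlapped DMSO. GYS1, glycogen synthase of muscle and most tissues, had 68.5, 78.3 and 61.4 CPM with sunitinib, 124, 124 and 131 CPM with compound 32 and 66.9, 74.8 and 78.99 CPM with DMSO, with a rise of 0.78 ± 0.092 for compound 32 (edgeR adjusted p = 1.45e-04). GBE1, the branching enzyme, had 96.5, 94.8 and 95.1 CPM with sunitinib, 175, 178 and 181 CPM with compound 32 and 115, 121 and 117 CPM with DMSO. Its groups did not overlap, with -0.30 ± 0.056 for sunitinib (edgeR adjusted p = 0.00132) and 0.60 ± 0.056 for compound 32 (edgeR adjusted p = 2.60e-05).

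PGM1, which interconverts glucose 1-phosphate and glucose 6-phosphate, had 73.2, 73.1 and 73.9 CPM with sunitinib, 121, 125 and 129 CPM with compound 32 and 60.6, 59.3 and 65.4 CPM with DMSO. All 3 groups were apart. It rose 2.02-fold with compound 32 (1.02 ± 0.063, edgeR adjusted p = 1.15e-06) and by 0.25 ± 0.063 with sunitinib (edgeR adjusted p = 0.00879), a call that was lost without DMSO replicate 2 (0.21) and with no filter on low counts (0.21). PGM2, which acts mainly on ribose 1-phosphate and deoxyribose 1-phosphate, had 109, 100.4 and 118 CPM with sunitinib, 114, 116 and 107 CPM with compound 32 and 141, 138 and 134 CPM with DMSO. Both treatments were below DMSO in every library, with -0.33 ± 0.070 for sunitinib (edgeR adjusted p = 0.0029) and -0.29 ± 0.070 for compound 32 (edgeR adjusted p = 0.0115). The compound 32 call was lost without DMSO replicate 1 (-0.28) and without compound 32 replicate 3 (-0.26).

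UGP2, which makes UDP-glucose, had 60.7, 67.7 and 73.5 CPM with sunitinib, 83.6, 80.3 and 82.7 CPM with compound 32 and 74.5, 73.8 and 70.05 CPM with DMSO. Compound 32 was above DMSO in all 3 libraries, with 0.18 ± 0.075 (edgeR adjusted p = 0.122), and sunitinib overlapped DMSO. PPP1R3C, a subunit that directs protein phosphatase to glycogen, had 5.03, 3.29 and 5.33 CPM with sunitinib, 6.85, 6.82 and 6.39 CPM with compound 32 and 4.22, 4.56 and 2.19 CPM with DMSO. It rose with compound 32 by 0.87 ± 0.25 (edgeR adjusted p = 0.0264). At 34 to 109 counts per library this call was lost without DMSO replicate 3 (0.60), without compound 32 replicate 1 (0.85), without compound 32 replicate 2 (0.85) and without compound 32 replicate 3 (0.90).

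None of the 3 pentose phosphate genes was called with compound 32, where 22.3% of all genes were, and 1 was called with sunitinib, where 40.2% were. PGD, the second dehydrogenase of the oxidative arm, which yields NADPH, had 238, 228 and 292 CPM with sunitinib, 197, 184 and 203 CPM with compound 32 and 192, 202 and 189 CPM with DMSO. Sunitinib was above DMSO in every library (0.38 ± 0.091, edgeR adjusted p = 0.00634), with replicate 3 the highest, and compound 32 overlapped DMSO (0.0013 ± 0.091). TKT, transketolase, had 514, 514 and 498 CPM with sunitinib, 512, 511 and 547 CPM with compound 32 and 551, 582 and 544 CPM with DMSO. Its sunitinib libraries were all below DMSO, with -0.13 ± 0.063 (edgeR adjusted p = 0.111), and without sunitinib replicate 3 the value was -0.12 (edgeR adjusted p = 0.00642). TALDO1, transaldolase, had 279, 278 and 327 CPM with sunitinib, 274, 273 and 281 CPM with compound 32 and 274, 287 and 269.8 CPM with DMSO. The changes were 0.090 ± 0.074 for sunitinib and -0.0044 ± 0.074 for compound 32, neither of them called.

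Between compound 32 and sunitinib, 28 of the 40 tested genes were higher with compound 32 and 4 were lower, where 49.2% of all genes were called, 24.1% higher and 25.2% lower. A difference of at least 2-fold was called for 12 of the 40, all higher, against 5.38% of all genes higher and 8.08% lower. The median of the 40 was 0.60, against -0.029 over all genes. The 4 lower ones were PFKFB2, PDK2, PYGB and PGD. The largest differences were in ENO2 (2.40 ± 0.070), HK2 (2.17 ± 0.093), PFKFB4 (2.15 ± 0.098), PDK1 (2.06 ± 0.089) and LDHA (1.96 ± 0.094), with edgeR adjusted p-values from 8.22e-10 to 3.53e-08. Some genes differed between the compounds although neither or only 1 of them was called against DMSO, such as UGP2 (0.29 ± 0.076, edgeR adjusted p = 0.00771) and SLC16A1 (0.59 ± 0.057, edgeR adjusted p = 6.98e-06). PDHA1 (-0.076 ± 0.093), TALDO1 (-0.094 ± 0.074), TKT (0.040 ± 0.063) and PGM2 (0.041 ± 0.071) were not called. GAPDH was called at 0.28 ± 0.090 (edgeR adjusted p = 0.0206), but not in 6 of 19 alternatives, among them the omission of sunitinib replicate 1 (0.25), sunitinib replicate 2 (0.23), compound 32 replicate 2 (0.30) or compound 32 replicate 3 (0.25). PDK2 was not called without compound 32 replicate 1 (-0.34). PFKM (0.21 ± 0.062) was not called with upper-quartile factors (0.13) or library totals (0.15). MPC1 (-0.42 ± 0.18) became a call without sunitinib replicate 2 (-0.59), with upper-quartile factors (-0.51) and with library totals (-0.49). PPP1R3C (0.55 ± 0.24) became one without DMSO replicate 3 (0.56), with no filter on low counts (0.58) and with only the 6 libraries compared (0.55). MPC2 (0.39 ± 0.16) became one with no filter (0.42), DESeq2 (0.41) and limma voom (0.43). LDHB (0.28 ± 0.15) became one with no filter (0.31).

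Sunitinib replicate 3 weighed on 10 genes in the comparison of sunitinib with DMSO, which became calls once it was left out. Of these, PFKL (0.32) and SLC16A3 (0.23) were then higher. TPI1 (-0.31), PGK1 (-0.16), PKM (-0.14), LDHB (-0.43), PDK3 (-0.62), UGP2 (-0.19), PYGL (-0.13) and TKT (-0.12) were then lower. No call of the full comparison was lost or reversed by leaving it out. Across all genes tested without it, 3908 were higher and 4096 lower with sunitinib, against 3090 and 3036 with all libraries, so more calls were made over the whole table too. In compound 32 against DMSO it enters through the shared spread, the filter and the scaling. Leaving it out there made MPC1 (-0.42), UGP2 (0.18), PYGB (0.13) and TKT (-0.093) calls as well as PFKM, PFKFB2 and SLC16A1. Between compound 32 and sunitinib it made LDHB (0.51), MPC2 (0.63) and PPP1R3C (0.67) calls.

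**Figure D3:**
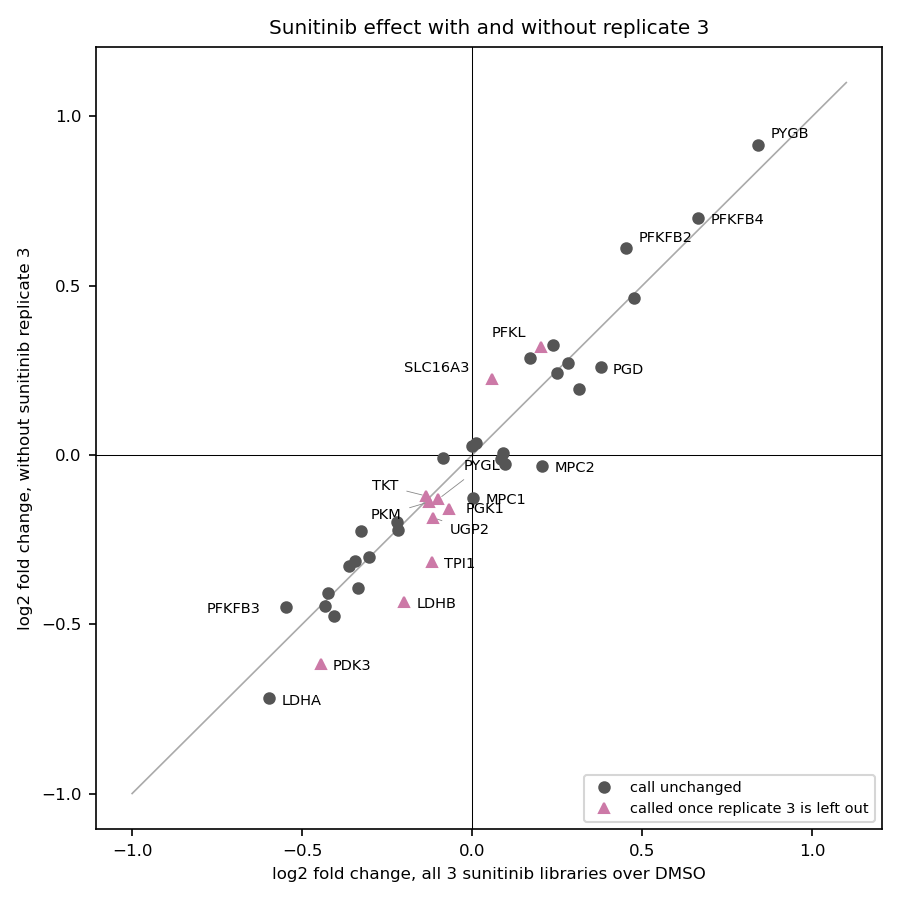
Log2 fold change of sunitinib over DMSO for the 40 tested genes, with all 3 sunitinib libraries on the horizontal axis and without sunitinib replicate 3 on the vertical axis; the grey line marks equal values. Triangles are the 10 genes that were called only once replicate 3 was left out, and they include TPI1 and LDHB, which lie furthest below the line among them.

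A ratio of 2 family members in 1 library does not depend on how that library is scaled. For 16 pairs, the mean log2 ratio was compared between groups with a two-sided exact permutation test, whose smallest p with 3 against 3 libraries is 0.1, so no single pair could pass 0.05 (48 tests, smallest adjusted p 0.13). The 3 libraries of each group did not overlap in 10 pairs for sunitinib against DMSO, in 14 for compound 32 against DMSO and in 13 for compound 32 against sunitinib. The share over other gene pairs was not computed, and separation is common in this table. Among single genes, all 3 sunitinib libraries lay above all 3 DMSO libraries in 25.8% and below them in 25.1%. Compound 32 against DMSO gave 24.7% and 24.4%, and compound 32 against sunitinib 27.8% and 29%.

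HK2 over HK1 was 0.188 with sunitinib, 0.564 with compound 32 and 0.240 with DMSO, as ratios of counts. PFKFB4 over PFKFB3 was 0.150 with sunitinib, 0.219 with compound 32 and 0.0641 with DMSO, with every library of both compounds above DMSO. PFKFB2 over PFKFB3 was 0.142, 0.0244 and 0.0718 in the same order of groups, with all sunitinib libraries above and all compound 32 libraries below DMSO. The log2 differences from DMSO of the last pair were 0.98 for sunitinib and -1.56 for compound 32.

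PDK1 over PDK2 was 0.912 with sunitinib, 5.50 with compound 32 and 1.49 with DMSO. LDHA over LDHB shifted by -0.38 with sunitinib and 1.28 with compound 32, and ENO2 over ENO1 by -0.19 and 1.69. PYGL over PYGB was 0.451 with sunitinib, 1.08 with compound 32 and 0.862 with DMSO. In each of the 7 pairs named so far the 3 groups were apart. PGM1 over PGM2 shifted by 0.59 with sunitinib and 1.31 with compound 32, PFKM over PFKL by -0.55 and -1.01, and SLC16A3 over SLC16A1 by 0.47 and 0.68. MPC1 over MPC2 differed by -1.02 with compound 32, whose libraries were all below DMSO, and its sunitinib and DMSO libraries overlapped.

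**Figure D4:**
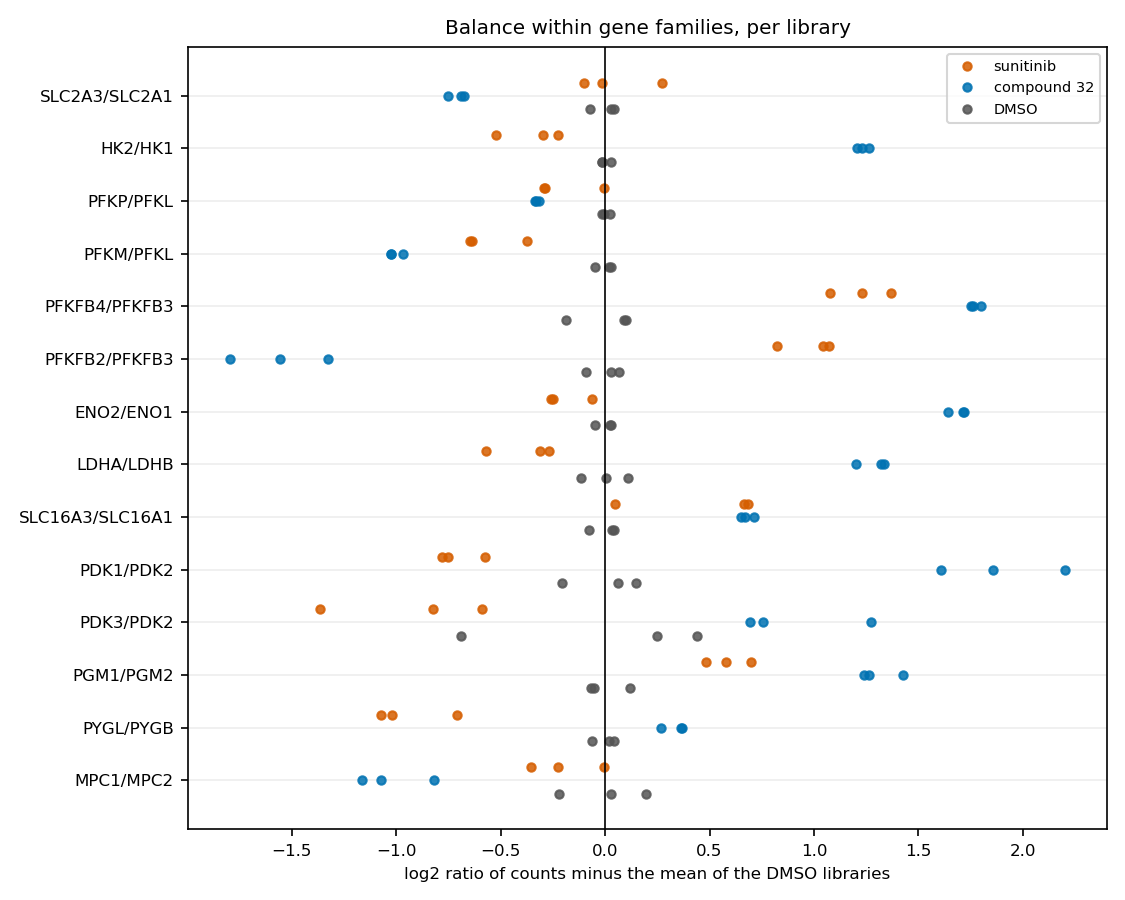
Log2 ratio of the counts of 2 family members in each library, minus the mean of the 3 DMSO libraries, for the 14 pairs in which both genes were tested; each point is 1 library, with sunitinib (orange) above compound 32 (blue) and DMSO (grey) in each row. Compound 32 and sunitinib lie on opposite sides of DMSO in HK2/HK1, PFKFB2/PFKFB3, ENO2/ENO1, LDHA/LDHB, PDK1/PDK2 and PYGL/PYGB, and on the same side in PFKFB4/PFKFB3, PGM1/PGM2 and PFKM/PFKL.

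Levels of different genes are compared as mean CPM per kilobase of the deposited gene length, which counts every annotated exon. On this scale GAPDH was the highest of the 42 genes in every group, at 1583 with sunitinib, 1928 with compound 32 and 1492 with DMSO. ENO1 came next in every group. LDHA stood at 133, 519.7 and 202 CPM per kilobase in the same order of groups, above TPI1 and PKM with compound 32 only. PDK4 was the lowest of all in each group, at 0.0995, 0.0598 and 0.0745 CPM per kilobase.

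Within families, the order of the levels held for some genes and turned for others. HK1 stayed above HK2 with compound 32, at 87.2 and 51.1 CPM per kilobase. PFKP was the highest phosphofructokinase in every group, but PFKL (23.8) stood above PFKM (18.1) with compound 32, and PFKM (20.02) above PFKL (13.1) with DMSO. PDK1 (3.39) stood above PDK2 (1.69) with compound 32, and PDK2 (1.73) above PDK1 (0.944) with DMSO. PYGB (44.3) exceeded PYGL (18.5) with sunitinib, while with compound 32 they were close, at 26.96 and 27.3. SLC16A3 (81.2) exceeded SLC16A1 (62.7) with compound 32, and SLC16A1 (56.1) exceeded SLC16A3 (45.4) with DMSO. The turns of PDK1 with PDK2 and of SLC16A3 with SLC16A1 rest on the deposited lengths. As ratios of counts with DMSO, PDK1 over PDK2 was 1.49 and SLC16A3 over SLC16A1 was 1.37, so in counts neither order turned.

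**Figure D5:**
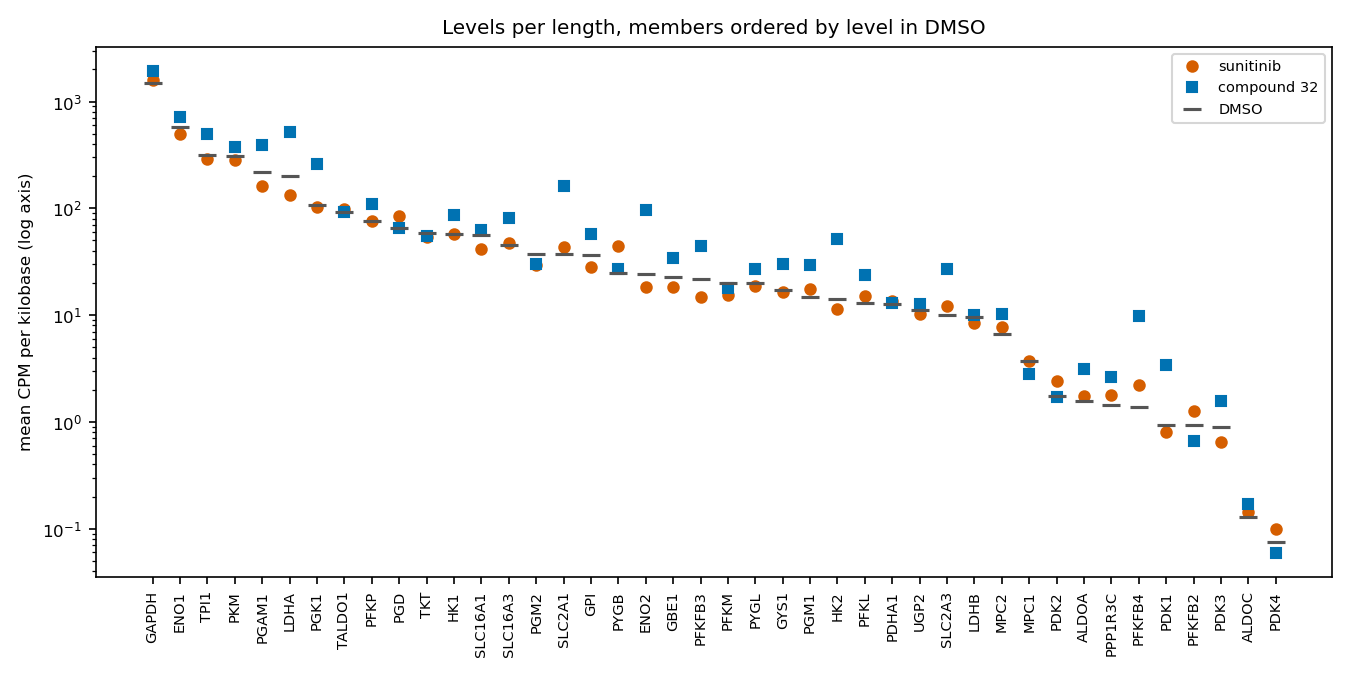
Mean level of the 42 genes in CPM per kilobase of deposited gene length (log axis, n = 3 libraries per group), with sunitinib as orange circles, compound 32 as blue squares and DMSO as grey dashes, ordered by the DMSO level. The blue squares of LDHA, SLC2A1, ENO2, HK2 and PFKFB4 stand far above the dashes, and those of the pentose phosphate genes TALDO1, PGD and TKT lie on or near them.

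A further 129 genes of the same pathways were listed, of which 91 were tested. Of the 91, compound 32 against DMSO had 17 higher and 5 lower, with a median log2 fold change of 0.016, where 12% and 10.3% of all genes were called. Sunitinib against DMSO had 22 higher and 22 lower, with a median of -0.025, where 20.3% and 19.9% of all genes were called. Of 20 genes listed for the citric acid cycle, with related enzymes such as cytosolic IDH1 among them, 2 were higher and 0 lower with compound 32. With sunitinib 3 were higher and 7 lower. IDH2, which makes NADPH in mitochondria, had 12.6, 11.8 and 9.95 CPM with sunitinib, 20.6, 22.03 and 24.1 CPM with compound 32 and 9.99, 10.8 and 9.01 CPM with DMSO. It was higher in all 3 compound 32 libraries (1.16 ± 0.12, edgeR adjusted p = 4.34e-05). Its cytosolic counterpart IDH1 had 137, 124 and 153 CPM with sunitinib, 71.4, 72.2 and 77.2 CPM with compound 32 and 78.6, 81.6 and 80.2 CPM with DMSO. It was higher in all 3 sunitinib libraries (0.78 ± 0.078, edgeR adjusted p = 1.68e-05).

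Among the other glycogen genes, 4 of 20 tested were higher with compound 32 and 0 lower, where 12% and 10.3% of all genes were. PPP1R3G, another glycogen-targeting phosphatase subunit, had 3.76, 4.03 and 3.38 CPM with sunitinib, 15.1, 15.02 and 15.96 CPM with compound 32 and 5.32, 5.22 and 4.57 CPM with DMSO. All 3 groups were apart, with compound 32 highest (1.61 ± 0.12, edgeR adjusted p = 3.41e-06). PPP1R3B, a further such subunit, rose by 0.76 ± 0.11 with compound 32 (edgeR adjusted p = 4.47e-04). GAA, which breaks glycogen down in lysosomes, rose with sunitinib by 0.73 ± 0.13, and PHKA1, a subunit of phosphorylase kinase, changed by -0.46 ± 0.10.

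Over all genes, 20.3% were called higher and 19.9% lower with sunitinib, and 12% and 10.3% with compound 32. Of 10 other tested genes of glycolysis and gluconeogenesis, 3 were higher and 3 lower with sunitinib, and 2 were higher and 1 lower with compound 32. Of 10 other tested pentose phosphate genes, 4 were higher and 4 lower with sunitinib, and 3 were higher and 0 lower with compound 32. PRPS2 and SHPK were among those called higher with compound 32 (0.30 ± 0.078 and 0.57 ± 0.16). The PRPS2 call was lost without DMSO replicate 1 (0.30) or 3 (0.26) and without compound 32 replicate 1 (0.30) or 2 (0.26). The SHPK call was lost without any one DMSO library or compound 32 replicate 1 or 3, with values from 0.44 without compound 32 replicate 1 to 0.60 without DMSO replicate 2. PCK2, the mitochondrial enzyme that makes phosphoenolpyruvate, had 125, 124 and 112 CPM with sunitinib, 14.9, 17.96 and 15.96 CPM with compound 32 and 20.5, 21.5 and 22.4 CPM with DMSO. It was 5.60-fold higher with sunitinib, and it was lower with compound 32 (-0.40 ± 0.090, edgeR adjusted p = 0.00838). H6PD, the first oxidative enzyme of the endoplasmic reticulum's own pentose phosphate pathway, rose 2.94-fold with sunitinib. PRPS1, which makes the ribose donor of nucleotide synthesis, was lower with sunitinib (-0.85 ± 0.064, edgeR adjusted p = 2.02e-06). GPT2, which converts pyruvate to alanine in mitochondria, rose 2.36-fold with sunitinib, and DLAT, a subunit of pyruvate dehydrogenase, changed by -0.46 ± 0.063.

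Of 9 other tested uptake and hexokinase genes, sunitinib raised 3 and lowered 2, and compound 32 raised 1 and lowered 1. The shares over all genes were 20.3% and 19.9% with sunitinib and 12% and 10.3% with compound 32. SLC2A6, a lysosomal hexose transporter, had 38.1, 41.7 and 33.6 CPM with sunitinib, 22.6, 27.03 and 31.3 CPM with compound 32 and 20.2, 18.9 and 18.6 CPM with DMSO. It was higher with sunitinib (0.97 ± 0.12), and by 0.49 ± 0.12 with compound 32, a call lost without DMSO replicate 2 (0.47), DMSO replicate 3 (0.46) or compound 32 replicate 3 (0.37). SLC2A10 was 3.78-fold higher with sunitinib, at 3.92, 2.67 and 2.73 CPM, against 0.778, 0.719 and 0.965 CPM with DMSO. SLC5A2, a sodium-coupled glucose transporter, was the one called lower with compound 32, at 0, 1 and 0 counts against 6, 6 and 3 counts with DMSO, and no fold is given at this depth. That call was lost without DMSO replicate 1, compound 32 replicate 1 or compound 32 replicate 3, with edgeR adjusted p-values of 0.0509, 0.0558 and 0.0591.

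Of 10 tested regulators of these genes, 3 were higher and 1 lower with compound 32, and 3 higher and 2 lower with sunitinib. The shares over all genes were 12% and 10.3% with compound 32 and 20.3% and 19.9% with sunitinib. EGLN1, an oxygen-dependent prolyl hydroxylase, had 53.3, 51.5 and 47.7 CPM with sunitinib, 116, 116 and 119 CPM with compound 32 and 62.1, 61.3 and 61.5 CPM with DMSO and was higher with compound 32 by 0.93 ± 0.063. EPAS1, a hypoxia-inducible factor subunit, had 124, 128 and 102 CPM with sunitinib, 65.9, 69.9 and 73.7 CPM with compound 32 and 42.4, 42.6 and 40.1 CPM with DMSO. The 3 groups were apart, and EPAS1 was 2.83-fold higher with sunitinib (edgeR adjusted p = 4.10e-07) and 1.67-fold higher with compound 32 (edgeR adjusted p = 1.92e-04). HIF1A, another such subunit, had 119, 115 and 118 CPM with sunitinib, 119.7, 114 and 124 CPM with compound 32 and 138, 142 and 141 CPM with DMSO. All libraries of both compounds were below DMSO, with -0.26 ± 0.059 for sunitinib and -0.23 ± 0.059 for compound 32. TXNIP, a glucose-responsive inhibitor of glucose uptake, was higher under both, by 2.29 ± 0.13 with sunitinib and 1.42 ± 0.13 with compound 32.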

How the data were processed

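The 9 deposited count columns hold whole-number counts of reads per gene, made by the authors. The submitters' processing notes list fastp, HISAT2 2.0.5, featureCounts, DESeq2, edgeR and the builds hg38 and mm10, with no roles. All 58735 gene IDs had the same start and end in GENCODE 29, and gene lengths are those of the deposited table. The treatment of strand and of reads shared between genes is unknown from the sources used here.

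Library sizes were scaled with TMM, genes were kept by filterByExpr, and groups were compared in 1 model over all 9 libraries with edgeR 4.0.16 (quasi-likelihood test, R 4.3.3) and Benjamini-Hochberg adjustment over 15232 genes. The script was tested on simulated data in which few genes were changed. There, 1.25-fold changes were recovered in 0% (sunitinib against DMSO), 11.5% (compound 32 against DMSO) and 3.7% (compound 32 against sunitinib) of cases. In the same order, 1.5-fold changes were recovered in 42.9%, 55% and 31.2%, and 2-fold changes in 76.4%, 73.8% and 74.4%. For 4-fold changes the shares were 100%, 95.6% and 92%. A gene that was not called can still have changed, in some cases by 2-fold. The alternatives were other scalings and filters, DESeq2 1.42.0, limma voom (limma 3.58.1), a replicate block, fits of 6 libraries and the omission of each library. Log2 ratios of gene pairs, with 0.5 added to each count, were compared by exact permutation tests. Promoter windows came from RefSeq (GRCh38.p14).

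The 42 genes and all lists were chosen with earlier results of these data known. The text describes every one of the 42 by role and, from each other list and comparison, at most the 2 called genes with the smallest p. SLC2A14, HIF1A and the marker genes named singly were chosen after their values were seen.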

Additional observations from a re-analysis of the deposited data

How the results depend on the processing

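Over 19 alternatives, each of the 3 comparisons gave 760 values for the 40 tested genes, and none of the calls reversed its direction. With sunitinib against DMSO, 33 values lost a call and 13 gained one, and 13 genes were called in every alternative. With compound 32 against DMSO, 22 lost and 18 gained one, and 21 genes were called in every alternative. With compound 32 against sunitinib, 9 lost and 13 gained one, and 29 genes were called in every alternative. Leaving out 1 library at a time, 5 to 10 of the 40 were higher and 10 to 19 lower with sunitinib against DMSO. The 1 gene lower with compound 32 against DMSO became 2 with no filter on low counts, 2 with DESeq2, 2 with the replicate block, 5 with only the 6 libraries compared, and 0 to 5 with 1 library left out. Same-numbered libraries deviated from their group means with correlations of -0.13 to 0.0937, so no shared effect of the number was seen. Whether the samples were paired is not given by the labels. With the replicate block, sunitinib against DMSO gave 7 higher and 11 lower, compound 32 against DMSO 27 higher, and compound 32 against sunitinib 28 higher and 4 lower. Over all genes, compound 32 against DMSO gave 1830 higher and 1571 lower calls, but 3258 and 3114 with only the 6 libraries compared, 3359 and 3189 without sunitinib replicate 3, and as few as 1168 and 968 without DMSO replicate 3. Each of the 336 alternative differences of pair ratios moved by less than 1 SD between replicates. Leaving out 1 of 3 libraries cannot move a group mean that far, so for those alternatives the outcome was fixed in advance. It does not show that the ratios are stable. For the other lists, the 2 called genes with the smallest p per list and comparison gave 796 alternative values. Of these, 25 lost a call and none reversed. The text does not describe all of these genes, and ENO3 (6) and PDP1 (4) hold some of the lost calls. With 3 libraries a group, small changes depend on single libraries, and PDK3, MPC1, PPP1R3C and ALDOA rest on 34 to 217 counts per library, where counting error is large.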

Other observations

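Several of the glucose genes share exonic bases with a gene on the other strand, so that without a stated strand setting their reads and those of the partner cannot be told apart. The share was 22.5% of MPC2 with DCAF6, 21.3% of PDHA1 with MAP3K15, 14.2% of GAPDH with AC006064.4 and 8.6% of PFKM with SENP1. AC006064.4 was listed with 0 counts in every library. Processed copies took few counts. GAPDH had 62 named pseudogenes in the table, of which 24 had any count, and together they held 0.1034% of the counts of GAPDH. The highest such share was 0.9006% for TPI1, from 3 pseudogenes with counts.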
